A study of Homo sapiens with 15 samples.

Results

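The comparison set the 5 most epithelial lines of a panel of 15 established non-small cell lung cancer (NSCLC) lines against the 5 least epithelial lines. The 10 lines were selected by the values of 4 marker genes in the same arrays, namely CDH1 (E-cadherin, the adhesion protein of epithelial junctions), EPCAM (an epithelial adhesion molecule), ESRP1 (a splicing factor of epithelial cells) and RAB25 (a small GTPase of apical recycling). For each marker the z-score was taken over the 15 lines, and the mean of the 4 z-scores was the marker score of a line. The most epithelial lines were H2009, H358, H1781, Calu3 and H2228, and the least epithelial lines were H1975, A549, Calu1, H226 and H460, and 5 values of a group are given in this order. H1650, H3122, HC827 (which is HCC827), H1437 and H520 lay between them and are called the middle lines. All lines were tumour cells grown in culture without irradiation, each measured once on an Affymetrix PrimeView array, so the lines are the replicates and the spread between cultures of 1 line is unknown. The panel was assembled to compare radioresistant with radiosensitive lines, a split that was not used here.

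By the histology in the study's methods, the most epithelial group held 4 adenocarcinoma lines and 1 bronchioloalveolar line (H358). The least epithelial group held 2 adenocarcinoma lines (H1975 and A549), 2 squamous lines (Calu1 and H226) and 1 large cell line (H460). Histology therefore moved with the groups. The methods give A549, Calu1 and Calu3 other media than the remaining lines, whereas the sample labels give the same medium for all. The array medians were 5.91 to 5.93 on the log2 scale in the most epithelial lines and between 5.88 and 5.92 in the least epithelial lines. The 3′ minus 5′ difference of the actin control probes, which grows as RNA breaks down, was 0.85 to 2.09 log2 units in the most epithelial lines, highest in H1781, and 0.65 to 1.15 in the least epithelial lines. Without H1781, 53 genes were called at the thresholds of this comparison, 39 of them among the 65 called with it.

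Epithelial cells hold to each other through adherens junctions, desmosomes and tight junctions, and they keep an apical surface apart from a basal one. In the epithelial to mesenchymal transition (EMT), repressors such as ZEB1 and SNAI1 switch off these genes while GRHL2, OVOL2 and the ESRP splicing factors keep them on, and cells gain vimentin, N-cadherin and matrix proteins. ZEB1 is known to repress by binding E-box letters in promoters. Lung cancer lines are known to range between these 2 states.

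The markers that chose the lines are given as a description. CDH1 was 11.70 to 12.91 in the most epithelial lines and 3.38 to 9.36 in the least epithelial lines, in log2 units of RMA expression (robust multi-array average, the normalised brightness of a probe set). EPCAM was 12.13 to 13.05 in the most and 4.03 to 10.95 in the least epithelial lines. ESRP1 was 10.35 to 11.68 in the most and 3.41 to 5.06 in the least, and RAB25 was 9.92 to 11.26 in the most and 4.20 to 5.43 in the least. ESRP1 and RAB25 were thus low in every one of the 5 least epithelial lines, while H1975 kept EPCAM at 10.95 and A549 kept CDH1 at 9.36. The score was 0.64 in H2228, just inside the most epithelial group, and 0.59 in H1650, just outside it. At the other end it was -0.57 in H1975, just inside the least epithelial group, and -0.12 in H520, just outside. H520 was mixed, with EPCAM at 13.05 and ESRP1 at 11.18 but CDH1 at 6.95 and RAB25 at 4.40.

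**Figure D1:**
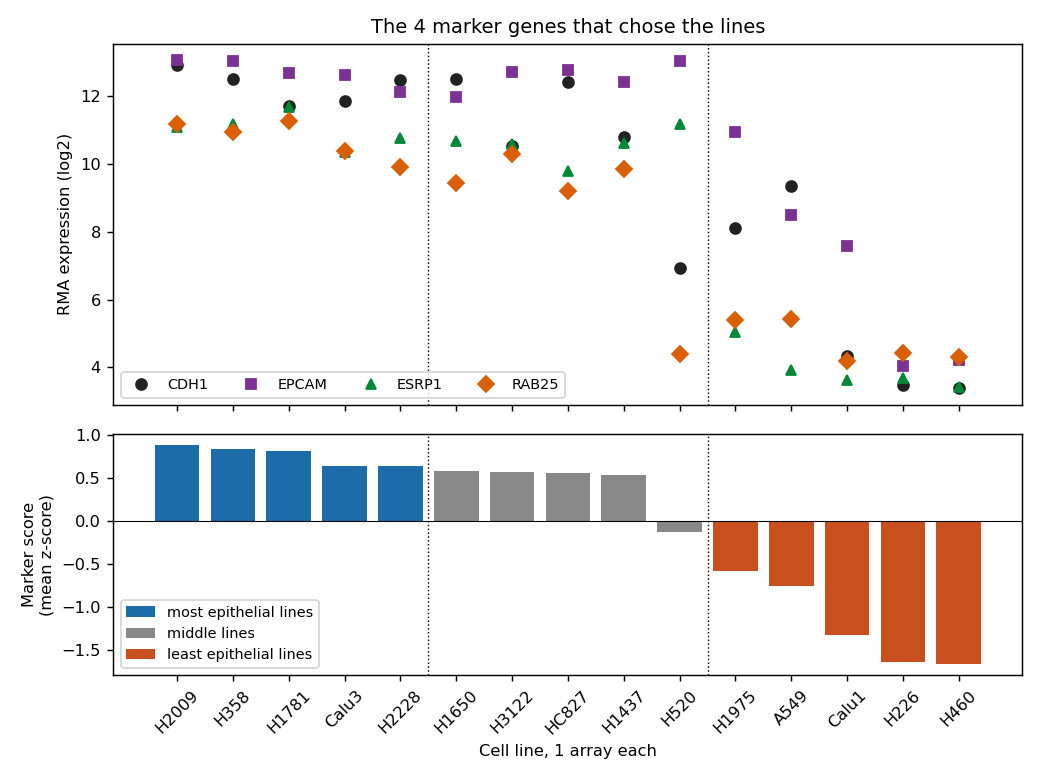
RMA expression of the 4 marker genes (upper panel, log2) and the marker score, their mean z-score over 15 lines (lower panel), with the lines ordered by score. The 4 highest middle lines (0.53 to 0.59) lie close to the most epithelial lines (0.64 to 0.88), whereas the least epithelial lines range from -0.57 to -1.66.

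With the 4 markers left out, 18128 genes were tested. A gene was called if its adjusted p was under 0.05 and its log2 fold change exceeded 1 in either direction. Fold changes are most minus least epithelial lines throughout. In all, 65 genes were called, of which 54 were higher (0.298% of the genes tested) and 11 were lower (0.0607%) in the most epithelial lines. In these bulk RNA samples, fewer expressing cells and less RNA per cell cannot be told apart. The 5 values of each of the 65 genes did not overlap between the groups. Over all genes, 297 (1.64%) were higher and 197 (1.09%) were lower in the most epithelial lines without overlap. Under the same fold limit and an unadjusted p under 0.05, 489 genes (2.7%) were higher and 322 (1.78%) lower. The median log2 fold change was 2.91 over the genes called higher, -1.94 over those called lower and -0.01 over all genes. Because 4 genes of these arrays chose the lines, genes that vary with them separate the groups through that choice, and the p-values measure the distance between groups so chosen against the spread between lines.

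**Figure D2:**
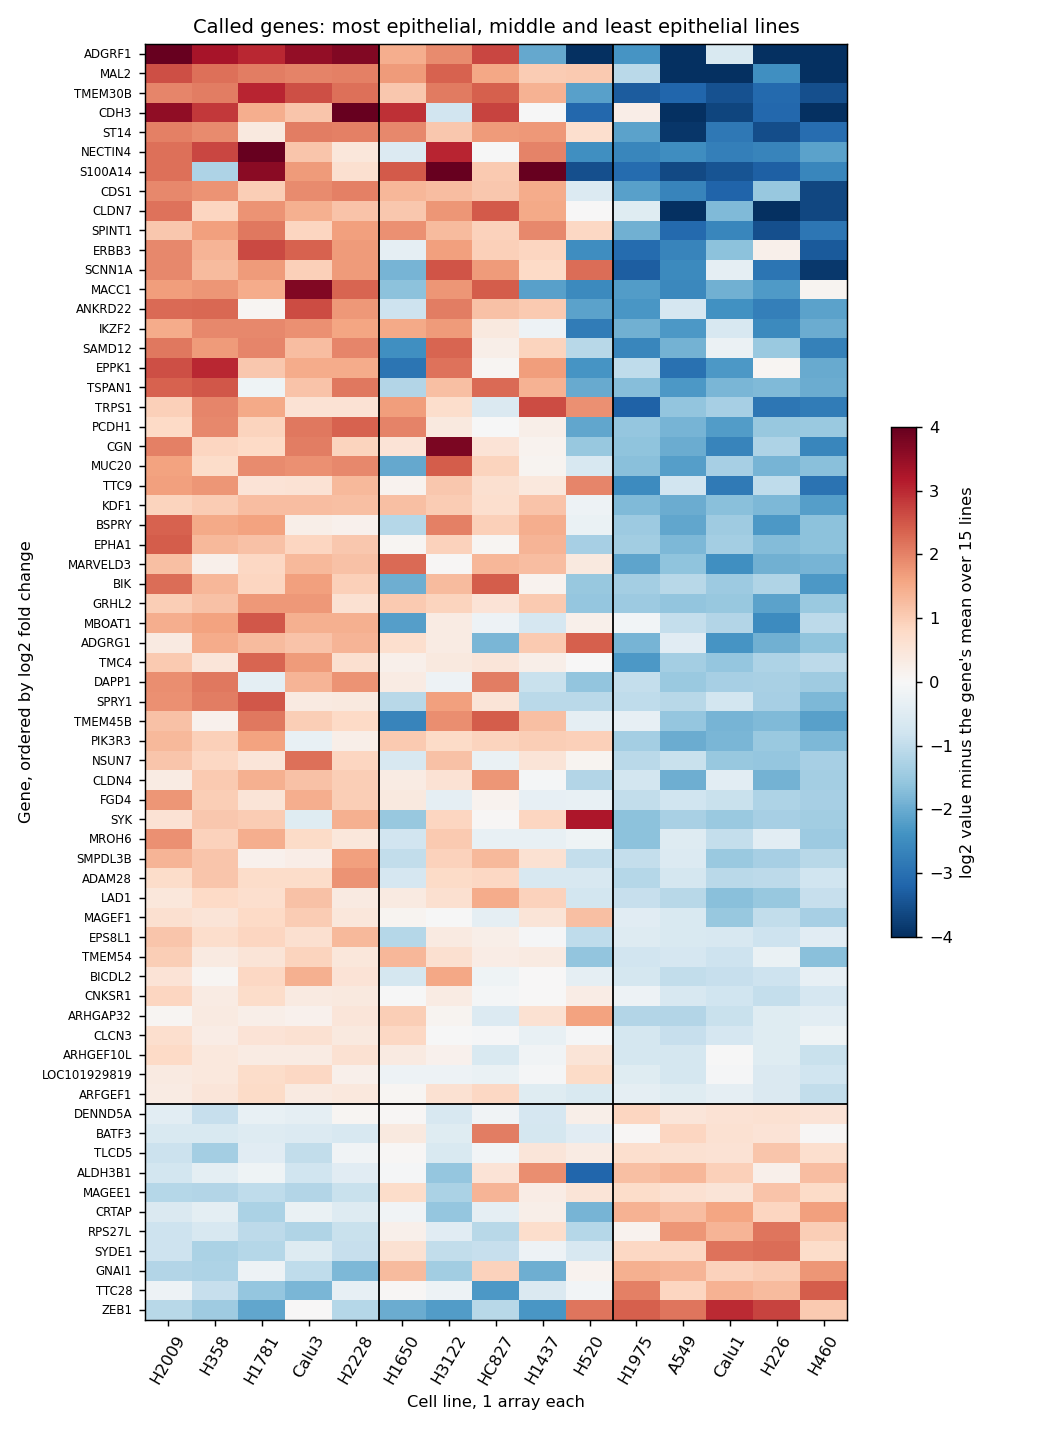
The 65 called genes (rows, ordered by log2 fold change) in the 5 most epithelial, 5 middle and 5 least epithelial lines (columns, left to right), coloured by the log2 value minus the mean of the gene over the 15 lines. The 54 genes above the horizontal line are high in the most epithelial lines on the left, and the 11 genes below it are high in the least epithelial lines on the right.

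ADGRF1, an adhesion G protein-coupled receptor, had log2 values of 12.12, 11.44, 11.16, 11.65 and 11.86 in the most epithelial lines, against 5.77, 4.10, 7.54, 2.94 and 3.50 in the least epithelial lines (log2 fold change 6.88, SE 0.79, adjusted p = 0.00677). The highest least epithelial line for ADGRF1 was Calu1, still far under every most epithelial line. ADGRF1 in A549, H226 and H460 lay under the lower quartile of the array, so the size of its difference is not well set, and its 3 probe sets gave log2 fold changes of 2.24 to 6.88. MAL2, a protein of transport to the apical membrane, had 11.79, 11.41, 11.26, 11.20 and 11.21 in the most epithelial lines, against 8.14, 4.87, 3.36, 6.75 and 4.40 in the least epithelial lines (log2 fold change 5.87, SE 0.79, adjusted p = 0.0179). H1975 and H226 kept some MAL2 signal, whereas Calu1 and H460 were near the low end of the array. NECTIN4, an adhesion molecule targeted by an antibody drug in urothelial cancer, had 8.79, 9.26, 10.81, 7.72 and 7.04 in the most epithelial lines, against 4, 4.11, 3.86, 3.95 and 4.45 in the least epithelial lines (log2 fold change 4.65, SE 0.61, adjusted p = 0.0147). The NECTIN4 values of H1975, A549, Calu1 and H226 lay under the lower quartile of their arrays, and that of H460 just above it. The size of its difference and the spread among the least epithelial lines are therefore not well set. Among the most epithelial lines NECTIN4 was highest in H1781 and lowest in H2228.

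TMEM30B, a subunit of the flippases that move lipids across membranes, had the lowest p of all genes tested, with 9.18, 9.27, 10.29, 9.81 and 9.43 in the most epithelial lines, against 3.90, 4.08, 3.75, 4.13 and 3.73 in the least epithelial lines (log2 fold change 5.68, SE 0.21, adjusted p = 5.2e-06). The values within each group were close together, but all 5 least epithelial lines lay under the lower quartile of their arrays. The size of the difference and the spread among these 5 lines are therefore not well set. The SE and the p of TMEM30B rest in part on that spread. Of its 5 probe sets, 4 gave the same direction, and their log2 fold changes ranged from -0.02 to 5.68. KDF1, a factor of keratinocyte differentiation that was named after its values were seen, was next, with 7.29, 7.40, 7.64, 7.63 and 7.61 in the most epithelial lines, against 4.63, 4.42, 4.74, 4.61 and 4.19 in the least epithelial lines (log2 fold change 2.99, SE 0.13, adjusted p = 1.1e-05). KDF1 thus varied little within either group, with SDs of 0.16 in the most and 0.22 in the least epithelial lines (n = 5 each). The KDF1 values of the least epithelial lines lay near the lower quartiles of their arrays (4.16 to 4.29). The size of its difference and the spread among these lines are therefore not well set.

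Matriptase and its inhibitor were high together. ST14, which encodes the membrane serine protease matriptase, had 9.98, 9.87, 8.34, 10.01 and 9.97 in the most epithelial lines, against 5.82, 4.07, 5.12, 4.43 and 4.91 in the least epithelial lines (log2 fold change 4.76, SE 0.41, adjusted p = 0.00139). SPINT1, which encodes an inhibitor of matriptase on the cell surface, had 9.68, 10.24, 10.72, 9.45 and 10.25 in the most epithelial lines, against 6.68, 5.48, 5.99, 5.09 and 5.71 in the least epithelial lines (log2 fold change 4.28, SE 0.33, adjusted p = 7.9e-04). The groups did not overlap for either gene. CDS1, an enzyme that makes a lipid precursor of the phosphoinositides, had 10.11, 9.98, 9.18, 10.09 and 10.19 in the most epithelial lines, against 6.01, 5.55, 4.98, 6.66 and 4.55 in the least epithelial lines (log2 fold change 4.36, SE 0.39, adjusted p = 0.00147). H1781, the line with the highest actin difference, was the lowest of the most epithelial lines for ST14 and for CDS1. PRSS8, the protease prostasin, averaged 9.30 ± 0.89 in the most and 7.34 ± 0.25 in the least epithelial lines (SD, n = 5 each) and was not called (log2 fold change 1.96, SE 0.38, adjusted p = 0.084). PRSS22, another serine protease, passed the adjusted p with a difference under the fold limit (log2 fold change 0.93, SE 0.16, adjusted p = 0.0466). Of the 13 measured surface proteases and inhibitors, 2 were called higher and none lower, with a median log2 fold change of 0.93, against -0.01 over all genes. Counts in this and the later lists stand beside 0.298% of all genes called higher and 0.0607% called lower. Past the unadjusted threshold the shares over all genes were 2.7% higher and 1.78% lower.

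Some junction genes were higher in the most epithelial lines. CLDN7, a claudin of tight junctions, had 10.96, 9.63, 10.57, 10.20 and 9.93 in the most epithelial lines, against 8.30, 4.43, 7, 4.78 and 5.13 in the least epithelial lines (log2 fold change 4.33, SE 0.71, adjusted p = 0.0424). H1975 and Calu1 kept part of the CLDN7 signal. CLDN4, another claudin, had 9.48, 10.18, 10.56, 10.30 and 10.13 in the most epithelial lines, against 8.41, 7.18, 8.71, 7.26 and 7.77 in the least epithelial lines (log2 fold change 2.26, SE 0.33, adjusted p = 0.0251), and here the least epithelial lines were all well above the low end of the array. MARVELD3, a membrane protein of tight junctions, averaged 7.34 ± 0.45 in the most and 4.40 ± 0.31 in the least epithelial lines (log2 fold change 2.94, SE 0.24, adjusted p = 9.9e-04). CGN (cingulin, which ties tight junctions to the cytoskeleton) averaged 8.79 ± 0.65 in the most and 5.44 ± 0.62 in the least epithelial lines (log2 fold change 3.35, SE 0.37, adjusted p = 0.00587). Of 18 measured tight junction and polarity genes, these 4 were called higher and none lower, 10 passed the unadjusted threshold as higher, and the median log2 fold change was 1.63. The scaffold TJP1 and the claudin CLDN12 were among the members that passed neither threshold.

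Among 17 desmosome and adherens junction genes, CDH3 and NECTIN4 were called higher and none lower, and the median was 0.57. CDH3 (P-cadherin) had 12.78, 12.06, 10.68, 10.35 and 13.22 in the most epithelial lines, against 9.49, 5.20, 5.55, 6.10 and 5.15 in the least epithelial lines (log2 fold change 5.52, SE 0.91, adjusted p = 0.0424). H1975 was the exception among the least epithelial lines for CDH3, closest to the most epithelial range. The desmosomal genes DSC2 and PKP3 had log2 fold changes of 3.09 (adjusted p = 0.189) and 1.15 (adjusted p = 0.203) and were not called. DSC2 overlapped through H460, which had 10.10. The apical membrane and trafficking genes had the highest median of the 20 lists, 1.88. All 24 measured members had a higher mean in the most epithelial lines, 6 of them were called, and 18 passed the unadjusted threshold. Over all genes, 8807 of 18128 had a higher mean in the most epithelial lines. Besides MAL2 and CDS1, the called members were S100A14, SCNN1A, TSPAN1 and EPS8L1.

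S100A14, a calcium-binding protein, had 10.34, 6.89, 11.73, 9.84 and 8.79 in the most epithelial lines, against 5.07, 4.54, 4.67, 4.86 and 5.54 in the least epithelial lines (log2 fold change 4.58, SE 0.76, adjusted p = 0.0441), and H358 was the lowest of the most epithelial lines by far. SCNN1A, the alpha subunit of the epithelial sodium channel, had 11.30, 10.64, 11.06, 10.34 and 11.07 in the most epithelial lines, against 6.08, 6.84, 9.02, 6.44 and 5.52 in the least epithelial lines (log2 fold change 4.10, SE 0.58, adjusted p = 0.0202), with Calu1 the highest of the least epithelial lines. EPS8L1, a relative of the actin regulator EPS8, had a small difference but a narrow spread, with 8.07, 7.66, 7.79, 7.59 and 8.24 in the most epithelial lines, against 6.44, 6.33, 6.32, 6.12 and 6.49 in the least epithelial lines (log2 fold change 1.53, SE 0.14, adjusted p = 0.00213). TSPAN1, a tetraspanin, averaged 10.15 ± 1.11 in the most and 6.63 ± 0.24 in the least epithelial lines (log2 fold change 3.51, SE 0.47, adjusted p = 0.017). Keratins did not follow the junction genes. Of 11 measured keratins none was called, 1 passed the unadjusted threshold, and the median was 0.09. KRT8, the keratin of simple epithelia, had 12.83, 12.68, 12.71, 13.46 and 12.29 in the most epithelial lines, against 12.21, 13.80, 12.24, 13.95 and 11.82 in the least epithelial lines (log2 fold change -0.01, SE 0.45, adjusted p = 0.996), so it was high in every line and the groups overlapped. KRT19 had a log2 fold change of 1.03 (adjusted p = 0.677), with A549 lowest at 9.74.

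**Figure D3:**
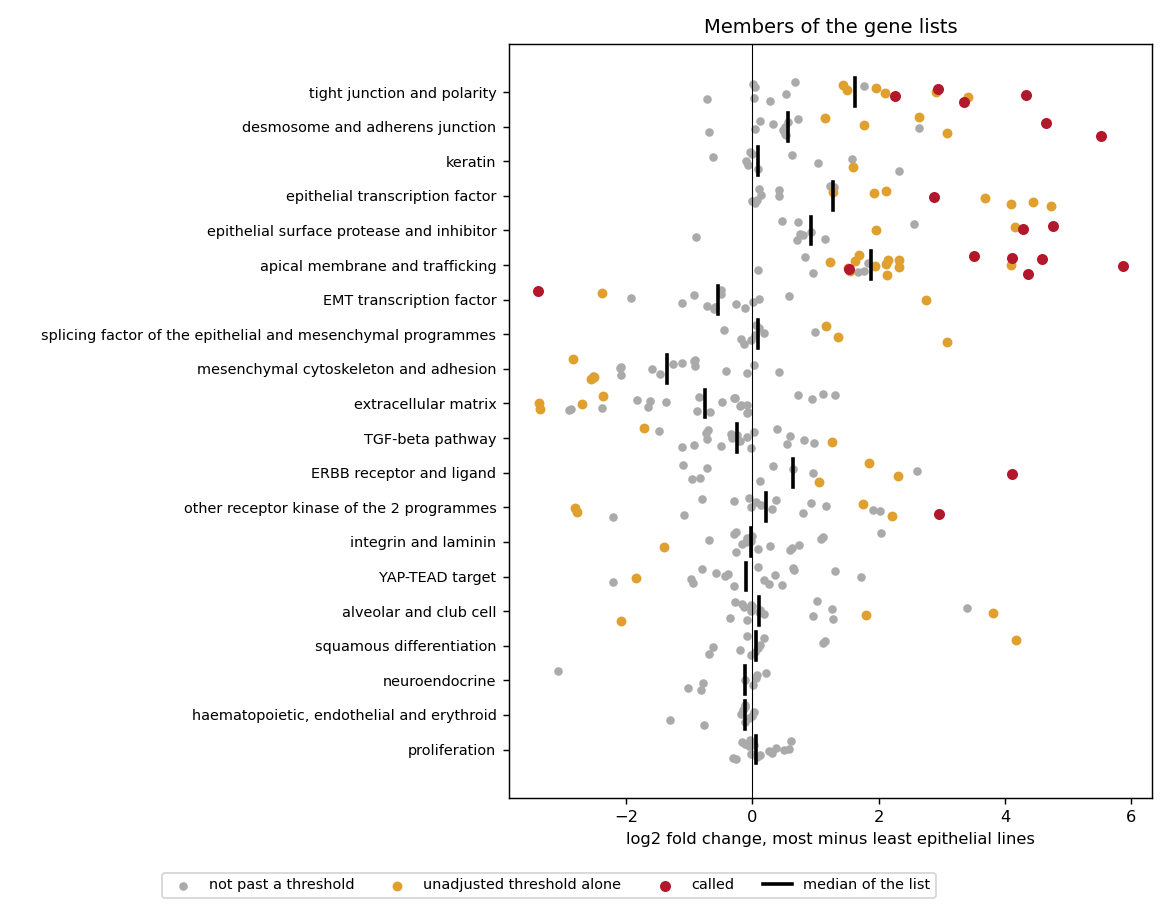
Log2 fold change (most minus least epithelial lines) of each measured member of 20 gene lists, coloured by the threshold it passed, with a bar at the median of the list. The medians were 1.63 for tight junction and polarity genes and 1.88 for apical genes. They were 0.09 for keratins and -1.36 for genes of the mesenchymal cytoskeleton and adhesion, and no member of either list was called.

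Of the transcription factors, GRHL2, which keeps epithelial genes on, had 7.64, 7.83, 8.39, 8.40 and 7.26 in the most epithelial lines, against 5.20, 5.09, 5.15, 4.52 and 5.19 in the least epithelial lines (log2 fold change 2.87, SE 0.24, adjusted p = 0.00139). Its least epithelial lines lay between 4.52 and 5.20, the highest of them well under H2228, the lowest most epithelial line. OVOL2, another epithelial repressor of EMT, had 7.43, 8.38, 9.28, 6.90 and 7.49 in the most epithelial lines, against 5.87, 6.03, 5.50, 5.70 and 5.79 in the least epithelial lines, without overlap but short of the threshold (log2 fold change 2.12, SE 0.40, adjusted p = 0.0743). GRHL1 and ELF3, 2 further epithelial factors, had log2 fold changes of 3.69 and 4.10 with adjusted p of 0.17 and 0.161. ELF3 was 10.58 in A549, as high as in the most epithelial lines H2009 and H358. Of 17 measured epithelial transcription factors, GRHL2 alone was called, 8 passed the unadjusted threshold as higher and none as lower, and the median was 1.28.

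IKZF2 (Helios), a zinc finger factor known from lymphocytes, was also called, with 8.17, 8.58, 8.59, 8.51 and 8.25 in the most epithelial lines, against 4.76, 4.37, 6.02, 4.13 and 4.70 in the least epithelial lines (log2 fold change 3.62, SE 0.32, adjusted p = 0.00143). The 3 probe sets of IKZF2 gave log2 fold changes of 0.02 to 3.62, so not every probe set showed the difference. MACC1, known for raising transcription of the receptor MET, had 8.14, 8.24, 7.97, 10.19 and 8.81 in the most epithelial lines, against 4.24, 3.91, 4.56, 4.22 and 6.59 in the least epithelial lines (log2 fold change 3.97, SE 0.58, adjusted p = 0.0252), and H460 stood above the other least epithelial lines. ANKRD22, an ankyrin repeat protein, had a log2 fold change of 3.86 (SE 0.54, adjusted p = 0.0201).

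In the other direction, ZEB1 had the largest decrease among the called genes. It had 4.71, 4.38, 3.74, 5.82 and 4.66 in the most epithelial lines, against 8.19, 7.93, 8.78, 8.52 and 6.84 in the least epithelial lines (log2 fold change -3.39, SE 0.44, adjusted p = 0.0146). Calu3 was the highest of the most epithelial lines and H460 the lowest of the least epithelial lines, and the groups did not overlap. Without the 2 squamous lines of the least epithelial group, the ZEB1 log2 fold change was -2.99 and the adjusted p was 0.0918. It was 0.0509 without H2009 and 0.05, just short of the threshold, without H358. Over all alternatives run the adjusted p of ZEB1 was 0.00297 to 0.246, and its level was lower in the most epithelial lines in each of them. No other EMT transcription factor of 16 measured was called, and the list had a median of -0.55. TWIST2 had 4.83, 4.13, 4.15, 4.25 and 5.93 in the most epithelial lines, against 4.24, 6.60, 9.07, 8.01 and 7.29 in the least epithelial lines (log2 fold change -2.39, SE 0.81, adjusted p = 0.316), with H1975 as low as the most epithelial lines. SOX4 ran the other way to its list, with a log2 fold change of 2.75 (adjusted p = 0.129). ZEB2, SNAI1, SNAI2 and TWIST1 passed neither threshold. The 2 probe sets of ZEB2 gave log2 fold changes of -0.50 and -2.44. The first of these, the brighter, was the one used, and the other was not tested. The one used averaged 3.98 in the most and 4.48 in the least epithelial lines, near the low end of the arrays.

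Since ZEB1 is known to read the E-box letters CACCTG, which read from the other strand as CAGGTG, RefSeq promoters were searched for them on both strands in the 250 bases before the start of each gene. The table held a promoter for 34 of the 54 genes called higher, and 16 of them (47.1%) had the letters at least once, against 2428 of 14424 promoters of all genes tested (16.8%). Of the genes past the unadjusted threshold, 28.5% of those higher and 12.8% of those lower had them. Among genes called lower the share was 22.2%, which is 2 of 9. In the last 100 bases before the start the shares were 35.3% for genes called higher and 6.3% for all genes. The palindromic E-box CAGCTG, of the same GC content, was found in 11.8% of the promoters of genes called higher and in 13.4% of all. It reads the same on both strands, so fewer spellings were counted for it. Its shares are therefore to be set against each other and not against those of CACCTG and CAGGTG. The median GC content of the window was 62.0% for genes called higher and 62.8% for all genes. These letters are a description of the windows, and binding was not measured. Whether ZEB1 or another factor reads them in these lines was not tested.

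The following 5 promoters belong to called genes whose windows hold the letters, among them TMEM30B, which had the lowest p, and are shown as examples of where the letters lie, chosen after their values and matches were seen. They are written 5′ to 3′ on the strand of the gene, from 250 bases before the start to the last base before it, from RefSeq, with the matches to either spelling in capitals.
TMEM30B (GRCh38.p14 chr14:61281339-61281588, minus strand): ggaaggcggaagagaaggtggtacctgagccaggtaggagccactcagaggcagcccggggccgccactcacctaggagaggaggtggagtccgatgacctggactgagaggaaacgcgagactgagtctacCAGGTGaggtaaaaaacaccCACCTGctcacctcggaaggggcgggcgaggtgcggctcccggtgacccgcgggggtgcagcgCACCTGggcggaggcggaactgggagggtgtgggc
KDF1 (GRCh38.p14 chr1:26960469-26960718, minus strand): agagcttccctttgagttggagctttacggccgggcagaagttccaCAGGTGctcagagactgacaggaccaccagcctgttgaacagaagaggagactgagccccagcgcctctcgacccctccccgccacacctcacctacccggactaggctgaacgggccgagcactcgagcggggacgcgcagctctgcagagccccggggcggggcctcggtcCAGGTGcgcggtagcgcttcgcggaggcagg
MACC1 (GRCh38.p14 chr7:20217385-20217634, minus strand): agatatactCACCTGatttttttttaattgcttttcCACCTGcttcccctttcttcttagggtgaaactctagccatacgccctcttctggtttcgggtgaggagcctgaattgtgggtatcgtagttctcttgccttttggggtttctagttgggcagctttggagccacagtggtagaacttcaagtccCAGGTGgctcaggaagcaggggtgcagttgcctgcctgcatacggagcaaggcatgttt
LAD1 (GRCh38.p14 chr1:201399325-201399574, minus strand): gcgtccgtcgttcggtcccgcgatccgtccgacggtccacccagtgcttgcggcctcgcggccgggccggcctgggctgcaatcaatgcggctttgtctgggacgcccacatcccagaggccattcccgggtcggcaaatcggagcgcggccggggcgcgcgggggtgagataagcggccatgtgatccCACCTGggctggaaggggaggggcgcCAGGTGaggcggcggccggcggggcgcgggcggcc
CDS1 (GRCh38.p14 chr4:84582877-84583126, plus strand): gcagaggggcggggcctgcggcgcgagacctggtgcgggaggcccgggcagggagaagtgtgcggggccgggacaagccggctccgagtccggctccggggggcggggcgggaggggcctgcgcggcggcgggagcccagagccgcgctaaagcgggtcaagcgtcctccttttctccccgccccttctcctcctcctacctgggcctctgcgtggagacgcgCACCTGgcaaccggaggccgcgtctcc
The promoters of TMEM30B and MACC1 held the letters 3 times, those of KDF1 and LAD1 held them 2 times, and that of CDS1 held them 1 time. Counted back from the start, the first letter of the nearest match was at -35 in TMEM30B, -31 in KDF1, -59 in MACC1, -35 in LAD1 and -27 in CDS1. LAD1, an anchoring protein of basement membranes, had 8.18, 8.52, 8.38, 8.91 and 8.08 in the most epithelial lines, against 6.81, 6.61, 6.05, 6.21 and 6.81 in the least epithelial lines (log2 fold change 1.91, SE 0.21, adjusted p = 0.00537), and it was named after its values were seen. The windows of SPINT1, CGN, CLDN4, CLDN7 and IKZF2 did not hold these letters.

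**Figure D4:**
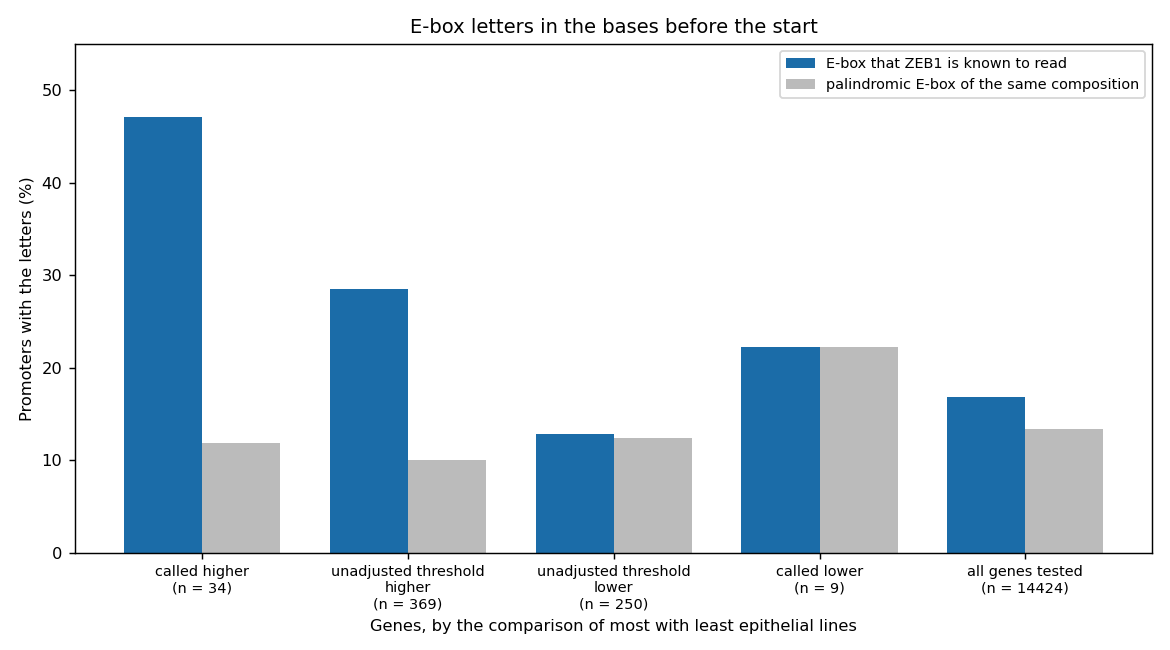
Share of promoters (%, vertical axis) that hold the E-box read by ZEB1 or a palindromic E-box of the same GC content in the 250 bases before the start, by gene group. The E-box read by ZEB1 is in 47.1% of the promoters of genes called higher and 16.8% of all. The palindromic one, for which fewer spellings were counted, is in 11.8% of the promoters of genes called higher and 13.4% of all.

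The other genes called lower in the most epithelial lines were not the usual mesenchymal markers. GNAI1, an inhibitory G protein alpha subunit, had 6.89, 6.81, 7.85, 7.04 and 6.25 in the most epithelial lines, against 9.48, 9.42, 8.97, 9.06 and 9.83 in the least epithelial lines (log2 fold change -2.39, SE 0.28, adjusted p = 0.00896). CRTAP, part of the complex that hydroxylates collagen prolines, had 9.06, 9.25, 8.39, 9.37 and 9.12 in the most epithelial lines, against 11.04, 10.88, 11.23, 10.50 and 11.27 in the least epithelial lines (log2 fold change -1.94, SE 0.21, adjusted p = 0.00546). MAGEE1, a member of the MAGE family, had 4.21, 4.19, 4.32, 4.18 and 4.45 in the most epithelial lines, against 6.08, 5.97, 5.86, 6.48 and 6.12 in the least epithelial lines (log2 fold change -1.83, SE 0.13, adjusted p = 5.7e-04). The values of MAGEE1 differed little within either group, but those of the most epithelial lines lay near the lower quartile of their arrays (4.19 to 4.23). The size of its difference and the spread among the most epithelial lines are therefore not well set. RPS27L, a target of p53 related to a ribosomal protein, had 10.44, 10.64, 10.23, 10.07 and 10.38 in the most epithelial lines, against 11.40, 13.05, 12.63, 13.40 and 12.27 in the least epithelial lines (log2 fold change -2.20, SE 0.34, adjusted p = 0.0313), and H1975 was the lowest of the least epithelial lines. The second of the 2 probe sets of RPS27L gave a log2 fold change of -0.32, so the call rests on 1 of them. TTC28 and SYDE1 had log2 fold changes of -2.56 and -2.29, and the 5 probe sets of SYDE1 gave -2.29 to -0.27. ALDH3B1 (an aldehyde dehydrogenase), TLCD5, BATF3 (a leucine zipper factor of dendritic cells) and DENND5A (a regulator of Rab GTPases) were called with log2 fold changes between -1.49 and -1.01.

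Larger differences that did not pass the adjusted threshold were seen in genes that only some lines expressed. SRGN, a proteoglycan of secretory granules, had 3.41, 3.77, 3.76, 3.83 and 4.71 in the most epithelial lines, against 6.22, 10.32, 9.62, 8.50 and 13.35 in the least epithelial lines (log2 fold change -5.71, SE 1.09, adjusted p = 0.0779). PAPPA, a metalloprotease that cleaves insulin-like growth factor binding proteins, had 4.12, 4.39, 4.44, 4.26 and 4.48 in the most epithelial lines, against 4.57, 8.65, 6.40, 9.86 and 9.44 in the least epithelial lines (log2 fold change -3.45, SE 0.92, adjusted p = 0.203). LAMA1, a laminin chain, was 10.05 in H226 and 12.88 in H460 but 3.95 in H1975 and 3.77 in A549, close to the most epithelial lines (log2 fold change -3.83, SE 1.63, adjusted p = 0.452). GJA1, the gap junction protein connexin 43, was high in all 5 least epithelial lines and also in 3 of the most epithelial lines, with 8.80 in H2009, 9.22 in Calu3 and 10.50 in H2228 (log2 fold change -4.0, SE 1.44, adjusted p = 0.35).

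Apart from ZEB1, no mesenchymal marker was called. VIM (vimentin, the intermediate filament of mesenchymal cells) had 7.05, 11, 10.08, 13.12 and 13.05 in the most epithelial lines, against 13.96, 13.32, 14.27, 13.43 and 13.50 in the least epithelial lines (log2 fold change -2.84, SE 1.04, adjusted p = 0.361). The least epithelial lines were uniformly high and the groups did not overlap, but Calu3 and H2228 lay close to the lowest least epithelial line, A549. CDH2 (N-cadherin) had 5.9, 7.70, 7.72, 7.91 and 6.28 in the most epithelial lines, against 5.65, 8.23, 11, 11.97 and 5.98 in the least epithelial lines (log2 fold change -1.47, SE 1.24, adjusted p = 0.737), and it was high in Calu1 and H226 alone. The name least epithelial therefore refers to the marker score and not to a full set of mesenchymal genes. FN1 (fibronectin) had 8.45, 10.04, 10.54, 9.83 and 8.56 in the most epithelial lines, against 9.56, 10.64, 14.05, 5.77 and 14.19 in the least epithelial lines (log2 fold change -1.36, SE 1.48, adjusted p = 0.797), high in Calu1 and H460 and low in H226. Of 18 measured genes of the mesenchymal cytoskeleton and adhesion, 16 had a lower mean in the most epithelial lines, against 9321 of 18128 over all genes. The median of this list was -1.36, yet none was called. VIM, ACTA2 and CALD1 were the 3 that passed the unadjusted threshold as lower. ACTA2 (smooth muscle actin) had a log2 fold change of -2.55 and CALD1 (caldesmon) of -2.51, with adjusted p of 0.203 and 0.348.

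The extracellular matrix genes were likewise spread, with a median log2 fold change of -0.75, none of 26 called and 4 past the unadjusted threshold as lower. COL5A1, a fibrillar collagen chain, had 4.55, 4.80, 5.20, 4.71 and 9.88 in the most epithelial lines, against 9.77, 6.64, 11.54, 9.88 and 8.15 in the least epithelial lines (log2 fold change -3.37, SE 1.21, adjusted p = 0.348). H2228 had as much COL5A1 as H226. FBN2, a fibrillin, had a log2 fold change of -3.37 (adjusted p = 0.301), with H1975 at 3.80 and the other 4 least epithelial lines between 8.36 and 10.67. The median SE of the log2 fold change was 1.20 over the matrix genes and 0.86 over the mesenchymal genes, against 0.37 over the tight junction genes and 0.25 over all genes, so a given difference was measured less closely in the first 2 lists.

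**Figure D5:**
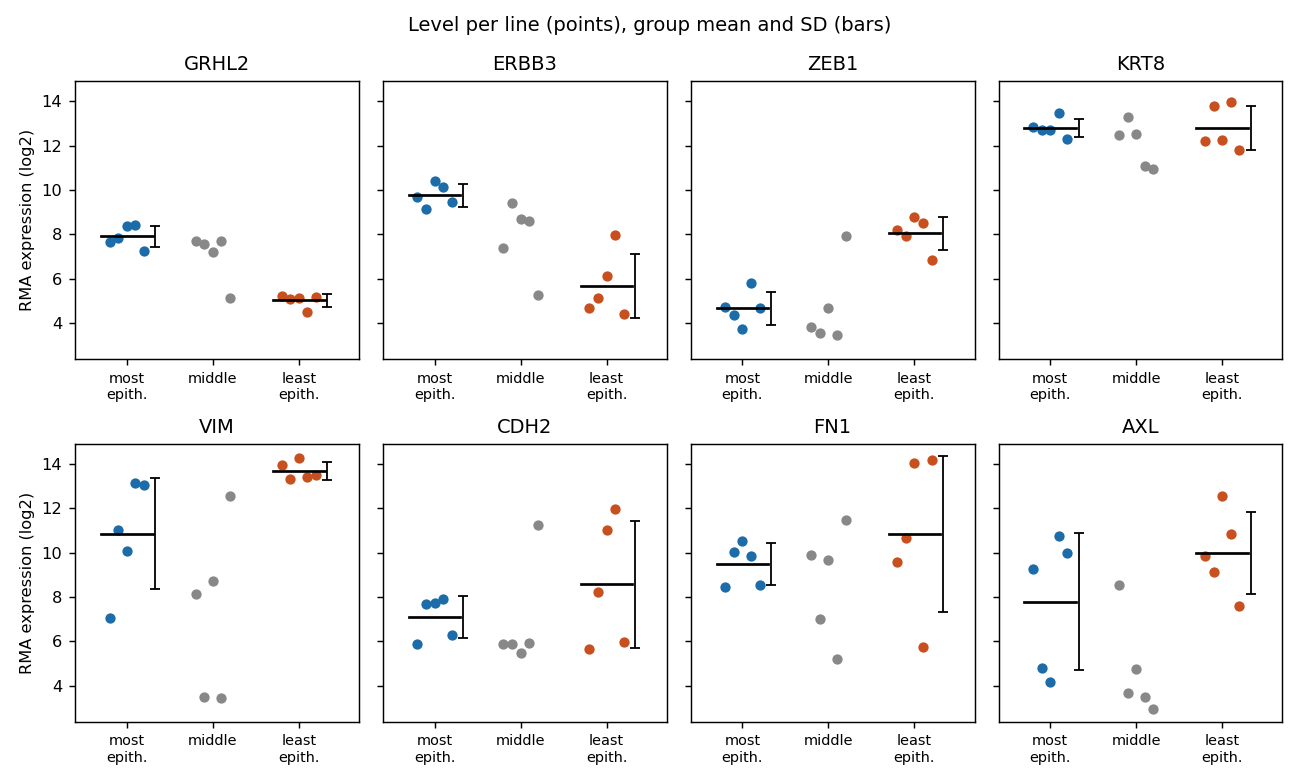
RMA expression (log2, vertical axis) of 8 genes, 1 point per line, in the most epithelial, middle and least epithelial lines, with the mean (horizontal bar) and SD (error bar) of the most and the least epithelial groups. GRHL2, ERBB3 and ZEB1 separate the groups, KRT8 does not, and VIM, CDH2, FN1 and AXL differ widely between lines within a group.

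Receptor kinases showed both patterns. ERBB3, the receptor for neuregulins that has little kinase activity of its own, had 9.70, 9.12, 10.41, 10.14 and 9.46 in the most epithelial lines, against 4.70, 5.12, 6.12, 7.96 and 4.41 in the least epithelial lines (log2 fold change 4.10, SE 0.63, adjusted p = 0.0317). H226 was the highest of the least epithelial lines. ERBB2, its partner, was high in Calu3 at 14.09, and the groups did not overlap, though it was not called (log2 fold change 2.30, SE 0.92, adjusted p = 0.415). The ligands BTC and TGFA had log2 fold changes of 1.05 and 1.85 with adjusted p of 0.177 and 0.409. The list of ERBB receptors and ligands also holds the regulators ERRFI1 and LRIG1. Of its 13 measured members ERBB3 alone was called, 4 passed the unadjusted threshold as higher and none as lower, and the median was 0.64.

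EPHA1, an ephrin receptor, had 8.05, 6.93, 6.79, 6.48 and 6.70 in the most epithelial lines, against 4.23, 3.83, 4.26, 3.90 and 4 in the least epithelial lines (log2 fold change 2.95, SE 0.27, adjusted p = 0.00187). Its second probe set gave a log2 fold change of -0.02, so the call rests on 1 of 2 probe sets. DDR1, a collagen receptor of epithelial cells, had 10.58, 11.07, 11.58, 12.39 and 10.43 in the most epithelial lines, against 8.51, 9.47, 8.51, 9.35 and 9.17 in the least epithelial lines, without overlap but with an adjusted p just over the threshold (log2 fold change 2.21, SE 0.39, adjusted p = 0.0531). FGFR1, a fibroblast growth factor receptor, had 4.63, 5.33, 6.22, 7.10 and 7.54 in the most epithelial lines, against 8.02, 9.67, 9.20, 9.89 and 7.89 in the least epithelial lines, lower in the most epithelial lines without overlap and not called (log2 fold change -2.77, SE 0.63, adjusted p = 0.131). AXL, a receptor often tied to EMT, had 9.27, 4.80, 4.17, 10.74 and 9.98 in the most epithelial lines, against 9.87, 9.14, 12.54, 10.85 and 7.59 in the least epithelial lines (log2 fold change -2.20, SE 1.47, adjusted p = 0.655), and H2009, Calu3 and H2228 were above the least epithelial lines A549 and H460. The list of receptor kinases other than the ERBB family also holds the ligands GAS6 and PDGFC. Of its 20 measured members EPHA1 alone was called, and the median was 0.22. At the unadjusted threshold 3 were higher and 2 lower, the latter being FGFR1 and GAS6.

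The second epithelial splicing factor, ESRP2, had 9.79, 8.82, 9.93, 8.95 and 9.50 in the most epithelial lines, against 8.53, 3.80, 6.26, 8.06 and 4.93 in the least epithelial lines (log2 fold change 3.08, SE 0.85, adjusted p = 0.206). Unlike ESRP1, it was kept in H1975 and H226. PTBP2, a splicing regulator known from neurons, passed the adjusted p with a difference just under the fold limit, at 8.64, 8.91, 8.99, 8.80 and 9.19 in the most epithelial lines, against 7.50, 7.78, 8, 8.23 and 8.06 in the least epithelial lines (log2 fold change 0.99, SE 0.16, adjusted p = 0.037). RBM47, an RNA-binding protein of epithelia, had a log2 fold change of 1.16 (adjusted p = 0.203). None of 12 splicing factors was called, with a median of 0.09.

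In the lists of other programmes limma called 0 genes. At the unadjusted threshold 1 TGF-beta pathway gene was higher and 1 lower, 1 integrin and 1 YAP-TEAD target were lower, 2 alveolar genes were higher and 1 lower, and 1 squamous gene was higher. The medians were -0.24 for 21 genes of the TGF-beta pathway, -0.02 for 18 integrins and laminins, -0.10 for 18 YAP-TEAD targets and 0.05 for 16 proliferation genes. NKX2-1, the lineage factor of alveolar and club cells, had 10.69, 10.85, 11, 4.31 and 10.04 in the most epithelial lines, against 7.75, 3.84, 8.95, 3.70 and 3.65 in the least epithelial lines (log2 fold change 3.80, SE 1.58, adjusted p = 0.436). It was high in 4 of 5 most epithelial lines and low in Calu3. SOX2, a factor of squamous and progenitor cells, was likewise between 9.03 and 11.78 in those 4 lines and 4.62 in Calu3, against 3.66 to 6.70 in the least epithelial lines (log2 fold change 4.18, SE 1.25, adjusted p = 0.242). The medians were 0.10 for 19 alveolar and club cell genes, 0.06 for 12 squamous genes and -0.11 for 9 neuroendocrine genes. The mean of 10 blood, endothelial and erythroid markers per line was 5.26 to 5.46 in the most epithelial and 5.37 to 5.75 in the least epithelial lines, and none of the 10 passed a threshold.

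The middle lines were in neither group. Of the 54 genes called higher, 50 were nearer to the mean of the most epithelial lines in H3122, 42 in HC827, 40 in H1437, 32 in H1650 and 20 in H520. These are shares of 92.6%, 77.8%, 74.1%, 59.3% and 37%. Over all 811 genes past the unadjusted threshold the shares in the same lines were 78.3%, 63.9%, 52.4%, 54.3% and 44.4%. That wider set mixes 489 higher with 322 lower genes and includes the called genes, so it is only a rough reference. The share in H1650 was close to it and the share in H520 was under it. Of the 11 genes called lower, the number nearer to the most epithelial mean was 11 in H3122, 7 in HC827, 7 in H1437, 5 in H1650 and 6 in H520. H520, a squamous line, had ZEB1 at 7.94, CDH2 at 11.26 and VIM at 12.54, with GRHL2 at 5.11. It still had ST14 at 8.65, SPINT1 at 9.42, MAL2 at 10.27 and SCNN1A at 11.62, all above every least epithelial line. H3122 and H1437 had the lowest VIM of all 15 lines, 3.48 and 3.47, under every most epithelial line. In H1650, GRHL2 was 7.71 and ZEB1 3.83, but MACC1 was 4.84 and SCNN1A 7.50.

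Calls depended on single lines for some genes and not for others. With each of the 10 lines left out in turn, 25 of the 65 genes were called in all 10 fits, among them ADGRF1, TMEM30B, KDF1, ST14, SPINT1, CDS1, IKZF2, GRHL2, MARVELD3, CGN, EPHA1, EPS8L1, LAD1, GNAI1, CRTAP and MAGEE1. ZEB1 and NECTIN4 lost the call without H2009 or without H358, with log2 fold changes of -3.69 to -3.16 and 4.13 to 5.07 over the 10 fits. MAL2 lost it without H2009, H358 or A549 (5.33 to 6.53), and TSPAN1 lost it without H2009 or A549 (3.29 to 3.95). CDH3 and CLDN7 kept it only without H1975, S100A14 only without H358 and ERBB3 only without H226, with log2 fold changes of 5.17 to 6.32, 3.95 to 4.92, 4.03 to 5.24 and 3.79 to 4.68. SCNN1A kept the call in 4 of the 10 fits, MACC1 and CLDN4 in 3, ANKRD22 and SYDE1 in 5, RPS27L, ALDH3B1, TLCD5 and BATF3 in 2, and TTC28 and DENND5A in 1, and none changed sign. Without the 2 squamous lines, 45 genes were called, 28 of them among the 65, and with adenocarcinoma lines alone (4 against 2) 8 were called, 6 of them among the 65.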

How the data were processed

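The 15 established NSCLC lines had 1 PrimeView array each. The authors deposited log2 expression values of probe sets, computed by RMA (affy 1.64.0, per the submitters' processing notes). RMA subtracts background, gives the arrays equal distributions and summarises the probes of a set, so differences in total signal are removed and low signals are compressed. Labels describe biotin labelling and Trizol, while the methods describe Cy3 or Cy5 labelling, a reference RNA and another kit. The columns hold 1 line each, without a reference. The series matrix held the same values to within 5.0e-09.

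Of 49293 probe sets that were not controls, 44988 had 1 gene in the platform annotation and were used, 1832 had several and 2473 none. Where a gene had several probe sets (11734 of 18132 genes), the brightest on average over the 15 arrays stood for it. Other probe sets could give smaller differences, with log2 fold changes of 0.85 to 4.10 for ERBB3, 0.98 to 4.28 for SPINT1 and 1.13 to 4.10 for SCNN1A. They could also give larger ones, as for CLDN4 (2.26 to 4.79). The 4 marker genes were left out of the tests. Precision is limited by the number of arrays. Batches or dates are not given in the sources used here.

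The groups were compared with limma 3.58.1 (R 4.3.3), most minus least epithelial lines, with lmFit, eBayes and Benjamini-Hochberg adjustment over 18128 genes. Code was tested on simulated data. Python 3.11.15, numpy 2.4.6, pandas 2.3.3 and matplotlib 3.10.9 made the other counts and the figures. The members, gene lists, tests and alternatives were chosen with earlier results of these data known. Named genes were, leaving out genes with no approved symbol, the 15 largest differences in each direction among called genes without overlap (filled up from the unadjusted threshold), the 4 members with the lowest p of each of 20 lists, and a fixed set of EMT genes. KDF1 and LAD1 were named after their values were seen, and so were genes given only by their place in a list. Promoters and their build, GRCh38.p14, are from RefSeq and were matched by symbol. Alternatives covered moderation, array weights, a t-test without permutations, the samples in the fit, the score as a slope, scaling, dim genes, probe sets, group size, markers, histology, RNA quality and each line.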

Additional observations from a re-analysis of the deposited data

Results flagged for a closer look

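Within groups of 5 lines, 13 of 136 tests marked a line as standing apart from the other 4, for 13 of the 68 genes given in the text, and chance flags about 1 in 20 groups. Among the most epithelial lines, ERBB2 stood apart in Calu3 at 14.09 and NKX2-1 in the same line at 4.31. COL5A1 stood apart in H2228 at 9.88, and EPHA1 in H2009 at 8.05. H1781, the line with the highest actin difference, stood apart as the lowest for ST14 at 8.34 and for CDS1 at 9.18. Among the least epithelial lines, CDH3 stood apart in H1975 at 9.49, MACC1 in H460 at 6.59 and TGFA in H460 at 3.89. ANKRD22 in A549 at 5.70 and GJA1 in A549 at 11.72 were above the other least epithelial lines. GRHL2 in H226 was the lowest at 4.52, and TLCD5 in H226 the highest at 6.95.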

How the results depend on the processing

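The count of 65 called genes was 58 to 78 under trend and robust moderation, array weights, the score as a slope, arrays centred on their median, only genes with a mean of at least 5, the mean of all probe sets and the score without CDH1. The score as a slope called 78 genes, and only 35 of the 65 were among them. Under the other settings of this set, 56 to 64 of the 65 were called again. The score without EPCAM chose the same lines, so its count of 65 repeats the main fit and says nothing about stability. The count was 55 with the score without ESRP1, 52 with 4 against 4 lines and 45 without the squamous lines. Of the 65 genes, 35, 34 and 28 were among these. The count was 27 with an equal-variance t-test and Benjamini-Hochberg adjustment, without the permutations that the study's methods name. It was 41 with all 15 lines in the fit and 32 with 6 against 6 lines. It was 25 with the score without RAB25 and 8 with adenocarcinoma lines alone. The cause of these lower counts was not tested. With each line left out in turn the count was 31 to 63, lowest without H2009, and it was also under 40 without H358 (34) and without A549 (39). The 811 genes past the unadjusted threshold became 636 to 926 under the alternatives, and 713 to 885 with 1 line left out. KRT8, with a log2 fold change of -0.01 and not called, changed sign to 0.245 with 6 against 6 lines, 0.185 and 0.239 with the score without CDH1 or ESRP1, and 0.183 without the squamous lines. It was 0.009 without H1781 and H3122, a fit equal to leaving out H1781 because H3122 was in neither group. With 1 line left out KRT8 ranged from -0.26 to 0.28. CDH2, not called, changed sign to 0.479 without the squamous lines and 0.009 with adenocarcinoma lines alone. No other gene of the 68 changed sign. Of 500 list medians under alternatives, 15 moved by more than the spread between lines. No paired analysis was possible because each line has 1 array, and its replicate number of 1 pairs no line with another. Signals near the low end of the arrays limit how far the differences of dim genes can be read.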

Other observations

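The genes called higher were unevenly placed. Chromosome 8 held 8 of the 54, of 627 genes tested there (1.28%, against 0.298% over all genes), namely MAL2, GRHL2, SAMD12, EPPK1, TRPS1, MROH6, ADAM28 and ARFGEF1, a set named after its values were seen. At the unadjusted threshold 7.02% of the genes on chromosome 8 were higher in the most epithelial lines, against 2.7% over all genes, and their median log2 fold change was 0.09. ESRP1, 1 of the 4 genes that chose the lines, is on the same chromosome. DNA copy number was not measured, and its part was not tested.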
